A study of Mus musculus with 6 samples.

Results

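The genes described here are 10 members of the BCL2 family of cell survival and death genes, listed by symbol and read from the expression table by their Ensembl gene identifiers. All 10 of the 10 were among the 12101 genes of the table and passed the filter on low values. The list was made from gene names and not from measured differences, but with earlier results of these data known. RNA was sequenced from megakaryocyte–erythroid progenitors (MEPs), bone marrow cells from which red cells and megakaryocytes arise. All libraries came from adult mice of the CD-1 strain that carry a *Nanog* transgene (*Nanog*-tg). In the study's methods the *Nanog* cDNA sits behind a doxycycline-responsive promoter at the *Col1a1* locus, and its activator rtTA is expressed from the *Rosa26* locus, which is active in most tissues. The dox-treated group had 3 replicates from mice given doxycycline (dox) in the drinking water for 5 days, and the untreated group had 3 replicates from mice of the same genotype without dox. The animals' age is not stated beyond adult. No group without the transgene received dox, so that the effects of dox itself and of *Nanog* cannot be told apart, and dox reached all tissues of the treated mice. It is not stated whether each replicate came from separate animals, and p-values then measure only the spread between these samples. In a bulk population, fewer cells of a type and less RNA per cell cannot be told apart.

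Proteins of the BCL2 family decide whether the outer membrane of the mitochondrion is breached, the step that releases cytochrome c and starts the caspases. BCL2, BCL-XL (from *Bcl2l1*) and MCL1 hold the membrane closed, BAX and BAK (from *Bak1*) open it, and the BH3-only proteins BIM (from *Bcl2l11*), BID and BAD carry death signals. BNIP3 and NIX (from *Bnip3l*) are related proteins that mark mitochondria for mitophagy, and NIX is known for clearing mitochondria from maturing red cells. Erythroid cells are known to rely on BCL-XL late in their maturation, and many blood progenitors rely on MCL1.

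Between 11264803 and 16153600 reads per library fell on the listed genes. Expression is given as CPM, the number of reads per 1000000 reads of the library's normalized size, and 1 read was worth between 0.0642 and 0.091 CPM. The members had between 81 and 4198 reads in a library, so none was near the floor of 3 reads. *Nanog* itself had between 15959 and 19609 reads in the dox-treated libraries and between 1 and 13 in the untreated ones. Dox-treated replicate 3 stood apart from the other treated libraries, at -14.8 on the first principal component against -57.5 and -56.4, while the untreated libraries lay between 35.1 and 54.2. Values without it are therefore given below. A hand-written list of 9 granulocyte-monocyte markers (all 9 measured, 7 of them past the threshold used below and lower with dox) summed to between 503.0 and 739.3 CPM in dox-treated and between 2335 and 5396 CPM in untreated libraries. The sort gated on CD16/32 and CD34, which separate MEPs from granulocyte-monocyte progenitors. A list of 10 erythroid markers summed to 2722, 2568 and 5270 CPM in dox-treated replicates 1, 2 and 3 and to between 4487 and 4707 CPM in the untreated libraries. Most of that sum was *Car1* (means of 2033 CPM with dox and 2337 CPM without), and of the 10 *Ermap* was past the threshold and lower. At an unadjusted p under 0.05 (limma) 3 were lower and 2, *Hbb-b1* and *Alas2*, higher. Over all genes tested 29.2% had such a p, and 7.77% were past the threshold. The 7 megakaryocyte markers analysed summed to 386.1, 376.3 and 115.2 CPM in dox-treated replicates 1, 2 and 3 and to between 80.4 and 114.0 CPM in the untreated ones. Most of the treated sum was *Itga2b* (means of 233.3 and 33.59 CPM), and of the others *Gp9* and *Gp1ba* were past the threshold and higher, and *Vwf* past it and lower. Of 5 mast cell and basophil markers *Cpa3* and *Ms4a2* were higher past the threshold, the means of *Gzmb*, *Mcpt8* and *Kit* were lower with dox, and the sums overlapped (383.4 to 400.7 CPM with dox and 338.2 to 504.3 CPM without). The 3 stem cell markers analysed summed to between 86.8 and 204.8 CPM with dox and between 30.2 and 77.5 CPM without. Most of that sum was *Cd34* (means of 121.2 CPM with dox and 43.18 CPM without), and 0 of the 3 passed the threshold. The mean of *Flt3* was also higher with dox and that of *Slamf1* lower. The 5 macrophage markers summed to between 9.05 and 13.4 CPM with dox and between 18.6 and 56.8 CPM without. The macrophage difference lay in *Vcam1* (means of 3.90 and 30.99 CPM), and the median log2 fold change of those 5 was 0.04. All 6 markers of MEPs (*Kit*, *Gata1*, *Gata2*, *Tal1*, *Gfi1b* and *Zfpm1*) were expressed and summed to between 1374 and 1540 CPM with dox and between 1578 and 1786 CPM without, with *Gata2* higher and the other 5 lower in every dox-treated library. The genes *Cd3e*, *Cd3g*, *Cd3d* and *Pax5* of T and B cells were not among the genes analysed. The 1 T and NK cell marker analysed was past the threshold and lower (7.73 to 9.69 CPM with dox and 24.7 to 51.2 CPM without). The 4 B cell markers analysed summed to between 6.35 and 16.4 CPM with dox and between 6.73 and 12.6 CPM without.

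The groups were compared over 12088 genes with limma and Benjamini–Hochberg adjustment, using log2 values as deposited. Of the 10 members 1, *Bcl2l11*, was lower with dox at an adjusted p under 0.05, and 0 were higher. Over all genes tested 7.77% passed, 3.18% lower and 4.59% higher. At an unadjusted p under 0.05 there were 5 members, against 29.2% of all genes, and the 6 libraries separated by group for the same 5, against 35.9% of all genes. Of these 5, *Bcl2l11* and *Bak1* were lower in every dox-treated library, and *Bcl2l1*, *Bnip3* and *Bnip3l* were higher in every dox-treated library. The median log2 fold change (dox-treated minus untreated) was -0.04 over the 10 members and -0.03 over all genes tested.

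**Figure D1:**
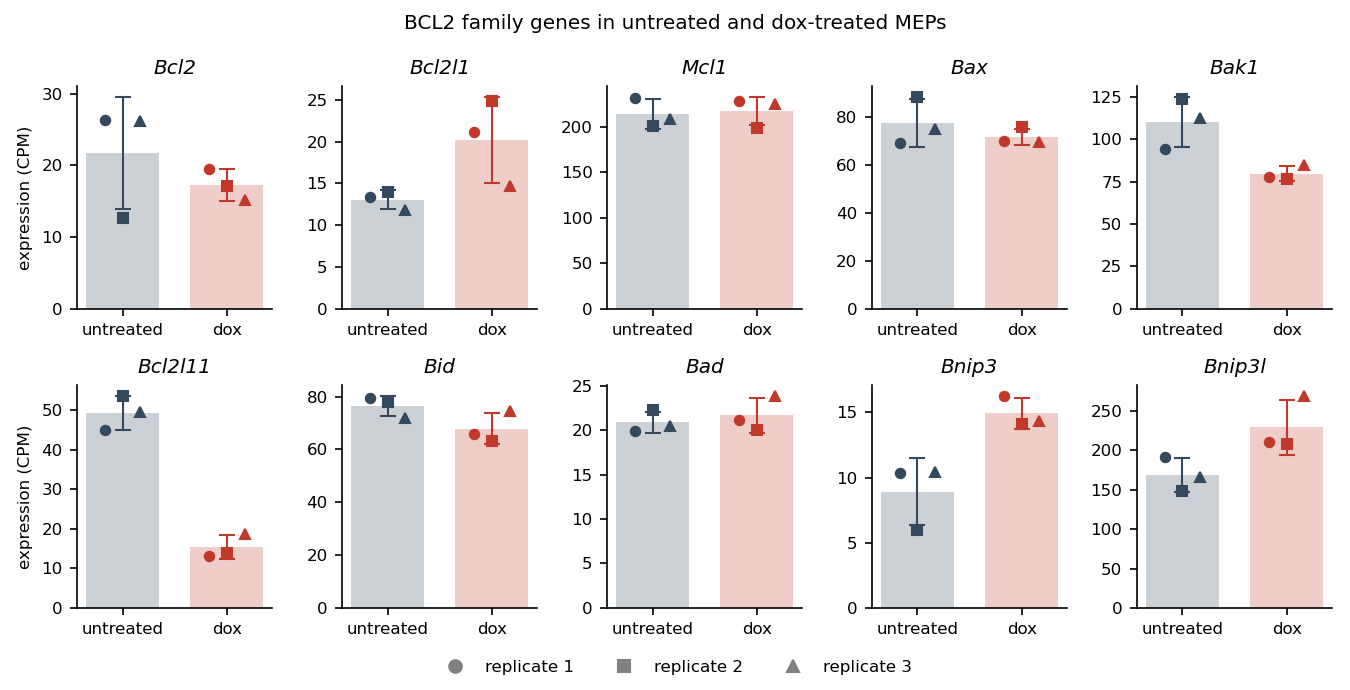
Expression of the 10 members in CPM (vertical axes, each from 0) in untreated (dark) and dox-treated (red) MEPs. Bars are means, error bars SD over 3 libraries, and symbols the single libraries. *Bcl2l11* lies between 44.9 and 53.5 CPM without dox and between 13.1 and 18.7 CPM with dox, while *Mcl1*, *Bax*, *Bid*, *Bad* and *Bcl2* overlap between groups.

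*Bcl2l11* encodes BIM, a BH3-only protein that can bind every prosurvival member and is used by blood cells deprived of cytokines. The gene lies on chromosome 2 of NCBIM37 from 127951774 to 127988283 on the plus strand, and no other annotated transcript matched its own at 95% identity over 100 bp or more. It had 578, 724 and 544 reads in untreated replicates 1, 2 and 3 (44.9, 53.5 and 49.5 CPM) and 178, 188 and 292 reads in dox-treated replicates 1, 2 and 3 (13.1, 14.0 and 18.7 CPM). Every dox-treated library was below every untreated one, and dox-treated replicate 3 was the highest of its group. The mean was 49.3 ± 4.28 CPM (SD, n = 3) without dox and 15.3 ± 3.03 CPM (SD, n = 3) with dox. *Bcl2l11* fell by 1.70 on the log2 scale (standard error 0.17, adjusted p = 0.010, limma), which is 3.25-fold, with a 95% confidence interval from 2.45- to 4.33-fold. Its unadjusted p was the 64th smallest of the 12088 genes. The two-sided exact permutation test gave p = 0.1, the smallest that 3 libraries against 3 allow. Without dox-treated replicate 3 the log2 fold change was -1.86 (limma, adjusted p = 0.0040), and over all single libraries left out it ran from -1.86 to -1.60. With the replicate number as a block, under which 0.678% of all genes passed, its adjusted p was 0.055.

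The fall of *Bcl2l11* went with that of the granulocyte-monocyte markers between the groups. The part of other cell types in the difference was not tested. Untreated replicate 2 had the lowest granulocyte-monocyte sum of the untreated libraries (2335 CPM) and the highest *Bcl2l11*, and dox-treated replicate 3 had the lowest of the treated libraries (503.0 CPM) and again the highest *Bcl2l11*. Dox-treated replicate 3 also had a higher erythroid marker sum (5270 CPM) than any untreated library, with *Bcl2l11* at 18.7 CPM against 44.9 CPM or more in the untreated libraries. Over the 9993 genes that averaged 5 CPM or more, those whose log2 profiles over the 6 libraries were closest to *Bcl2l11* were *Atp1b2*, a subunit of the sodium pump, *Slc16a6*, a monocarboxylate transporter family gene, and *Bmp1*, a secreted metalloprotease. Their mean absolute differences from it, after each gene was centred on its own mean, were 0.076, 0.078 and 0.088 on the log2 scale. Expression of *Atp1b2* was 137.0 CPM with dox and 456.3 CPM without.

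The promoters of *Bcl2l11*, the member past the threshold, and of *Bnip3*, the member with the largest positive log2 fold change, are shown as the 250 bases before a transcription start, from RefSeq on GRCm38.p6. Of the 10 members 9 matched in that table, with 13 start sites, and *Bnip3l* did not. The upstream window of the first *Bcl2l11* start is chr2:128125788-128126037 (plus strand), and that of *Bnip3* is chr7:138909507-138909756 (minus strand). Capitals mark GTAAACA, a sequence bound by forkhead (FOXO) factors, in the first *Bcl2l11* window, and CACGTG, which holds the hypoxia-response core ACGTG on both strands, in *Bnip3*.
Bcl2l11: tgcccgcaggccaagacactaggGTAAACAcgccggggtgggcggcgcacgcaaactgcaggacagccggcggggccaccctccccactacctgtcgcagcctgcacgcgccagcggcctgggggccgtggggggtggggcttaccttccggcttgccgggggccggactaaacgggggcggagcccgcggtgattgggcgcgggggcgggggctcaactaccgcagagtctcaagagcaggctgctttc
Bnip3: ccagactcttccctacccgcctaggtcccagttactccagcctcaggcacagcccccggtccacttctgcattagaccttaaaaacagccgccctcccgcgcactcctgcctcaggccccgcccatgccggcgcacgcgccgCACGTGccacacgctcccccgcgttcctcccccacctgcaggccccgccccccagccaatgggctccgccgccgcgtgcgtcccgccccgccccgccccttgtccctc
The forkhead sequence begins at -227, with -1 the last base before the start, and the window of the second *Bcl2l11* start does not hold it. Searched on both strands, GTAAACA was in 3.17% and ACGTG in 16.6% of all 32851 promoter windows of the same length. The windows were also searched for TAATGG, which the NANOG homeodomain binds (6.57% of all windows), for AGATAA or TGATAA of GATA factors (16.6%), and for TTCNNNGAA of STAT factors (7.02%). Among the members' windows that of *Bax* held the NANOG letters and the hypoxia core, 1 of the 3 *Bcl2l1* starts had a GATA sequence, and the STAT letters occurred in none. A match is a description of letters and not of binding.

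The other BH3-only members, *Bid* and *Bad*, overlapped between the groups and did not pass the threshold. *Bid*, whose protein is cut by caspase-8 and links death receptors to the mitochondrion, was at 79.3, 77.8 and 72.0 CPM in untreated replicates 1, 2 and 3 and at 65.8, 63.4 and 74.5 CPM in dox-treated replicates 1, 2 and 3. Dox-treated replicate 3 lay above untreated replicate 3, so the groups overlapped. The log2 fold change was -0.17 (95% confidence interval -0.44 to 0.10, adjusted p = 0.34, limma). *Bad*, whose protein is held inactive by phosphorylation downstream of survival kinases, was at 19.9, 22.2 and 20.5 CPM without dox and at 21.2, 20.03 and 23.9 CPM with dox. Its log2 fold change was 0.05 (95% confidence interval -0.23 to 0.33, adjusted p = 0.78, limma), with a sign that turned under quantile normalization and without dox-treated replicate 3. Exons of *Bid* overlap those of *Bcl2l13* and exons of *Bad* those of *Gpr137* on the opposite strand, and since the use of strand in counting is not given in the sources used here, their reads are uncertain to that extent. *Bcl2l13* had a log2 fold change of 0.08, and *Gpr137* one of 0.51 (limma, adjusted p = 0.115).

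Levels of different genes were compared as CPM per kilobase of annotated exons. On this scale *Bid*, *Bad* and *Bcl2l11* stood in that order in all 6 libraries. *Bcl2l11* made up 14.8%, 16.8% and 16.8% of the sum of these 3 genes in untreated replicates 1, 2 and 3 and 5.31%, 5.90% and 6.63% in dox-treated replicates 1, 2 and 3. The share of *Bad* was between 26.2% and 27.9% without dox and between 33.8% and 34.4% with dox, and that of *Bid* between 55.3% and 59.0% without dox and between 59.6% and 60.4% with dox. The shares of *Bad* and *Bid* were thus higher in every dox-treated library while their own levels overlapped between groups.

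**Figure D2:**
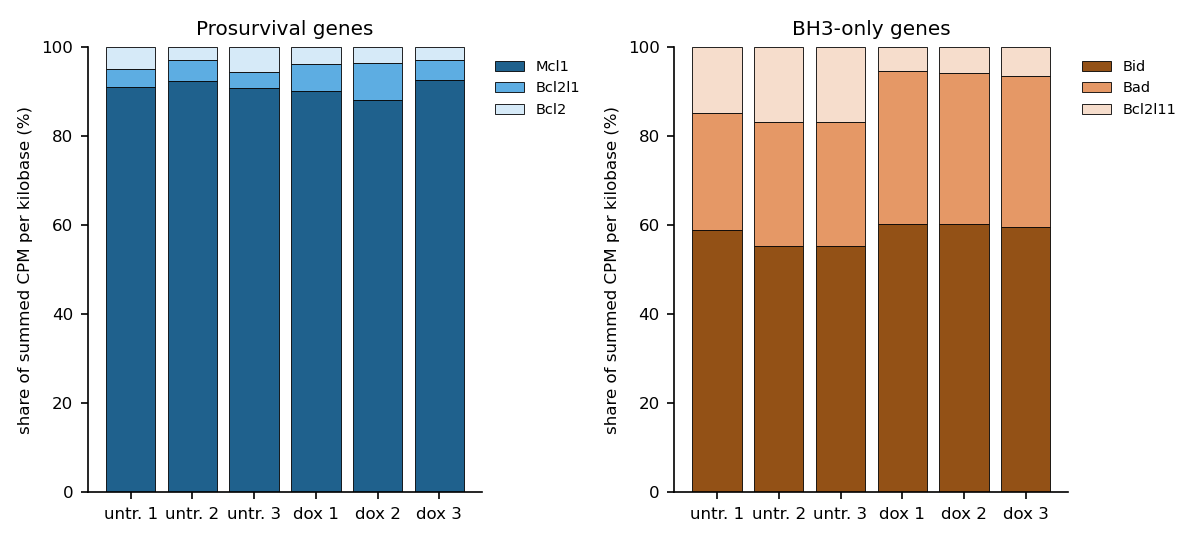
Share of each gene in the summed CPM per kilobase of the 3 prosurvival genes (left) and of the 3 BH3-only genes (right), in percent, for each untreated (untr.) and dox-treated (dox) library. The top segment on the right, *Bcl2l11*, is between 14.8% and 16.8% without dox and between 5.31% and 6.63% with dox, and *Mcl1* fills between 88.2% and 92.5% of each bar on the left.

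Among the prosurvival genes *Mcl1*, which encodes a short-lived protein, was by far the most abundant per kilobase. It was at 231.9, 201.2 and 208.4 CPM in untreated replicates 1, 2 and 3 and at 228.0, 199.0 and 224.5 CPM in dox-treated replicates 1, 2 and 3. The groups overlapped, and the mean was 213.8 ± 16.0 CPM (SD, n = 3) without dox and 217.2 ± 15.8 CPM (SD, n = 3) with dox. The log2 fold change was 0.02 (95% confidence interval -0.26 to 0.30, adjusted p = 0.91, limma), and its sign turned with the library left out.

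*Bcl2l1* was higher in every dox-treated library than in any untreated one, but did not pass the threshold. It had 172, 189 and 130 reads in untreated replicates 1, 2 and 3 (13.4, 14.0 and 11.8 CPM) and 287, 334 and 229 reads in dox-treated replicates 1, 2 and 3 (21.1, 24.9 and 14.7 CPM). Dox-treated replicate 3 was close to the untreated libraries, and the other treated libraries were well above them. The means were 13.1 ± 1.10 CPM (SD, n = 3) and 20.2 ± 5.14 CPM (SD, n = 3). On the log2 scale *Bcl2l1* differed by 0.60 (standard error 0.21, 95% confidence interval 0.08 to 1.12, adjusted p = 0.13, limma). Without dox-treated replicate 3 the log2 fold change was 0.81 and the adjusted p was 0.018 (limma), in a comparison in which 28.6% of all genes passed. The order of the dox-treated libraries in the megakaryocyte marker sum, with replicate 3 far below replicates 1 and 2, was also that of replicate 3 against the others in *Bcl2l1*. That sum is mostly *Itga2b*, and the part of those cells in the difference was not tested.

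*Bcl2*, the founding member of the family, varied most between untreated libraries. It was at 26.4, 12.7 and 26.2 CPM in untreated replicates 1, 2 and 3 and at 19.5, 17.1 and 15.1 CPM in dox-treated replicates 1, 2 and 3. Untreated replicate 2 was below all treated libraries and the other untreated libraries were above them. The coefficient of variation was 36.0% without dox and 12.7% with dox, and the log2 fold change was -0.26 (95% confidence interval -1.03 to 0.50, adjusted p = 0.59, limma). It was -0.61 without untreated replicate 2, -0.09 without untreated replicate 1 and -0.09 without untreated replicate 3. Untreated replicate 2 also had the lowest granulocyte-monocyte marker sum of its group. The part of such cells was not tested. Part of the *Bcl2* exons overlaps *D630008O14Rik* on the opposite strand. Per kilobase, the ratio of *Bcl2l1* to *Bcl2* was 0.771, 1.67 and 0.686 in the untreated and 1.65, 2.21 and 1.47 in the dox-treated libraries, which overlap because of untreated replicate 2.

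*Bax* and *Bak1* encode the effectors that form the pore in the outer mitochondrial membrane. The libraries separated by group for *Bak1* and overlapped for *Bax*. *Bak1* was at 94.2, 123.9 and 112.7 CPM in untreated replicates 1, 2 and 3 and at 78.0, 76.5 and 84.9 CPM in dox-treated replicates 1, 2 and 3. The spread within the dox-treated group was small beside that of the untreated group (coefficients of variation 5.59% and 13.6%). Its log2 fold change was -0.46 (standard error 0.14, 95% confidence interval -0.79 to -0.13, adjusted p = 0.090, limma), and without dox-treated replicate 3 it was -0.50 (adjusted p = 0.054, limma). *Ggnbp1*, whose exons overlap *Bak1* on the opposite strand, had between 111 and 177 reads in each library, against 1028 or more for *Bak1*. *Bax* was at 69.2, 88.5 and 74.8 CPM in untreated replicates 1, 2 and 3 and at 69.7, 75.6 and 69.6 CPM in dox-treated replicates 1, 2 and 3, so that the groups overlapped. The log2 fold change of *Bax* was -0.11 (95% confidence interval -0.42 to 0.21, adjusted p = 0.60, limma), with the opposite sign under total-read scaling. The ratio of *Bax* to *Bak1* per kilobase was between 1.19 and 1.32 in the untreated and between 1.47 and 1.78 in the dox-treated libraries.

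**Figure D3:**
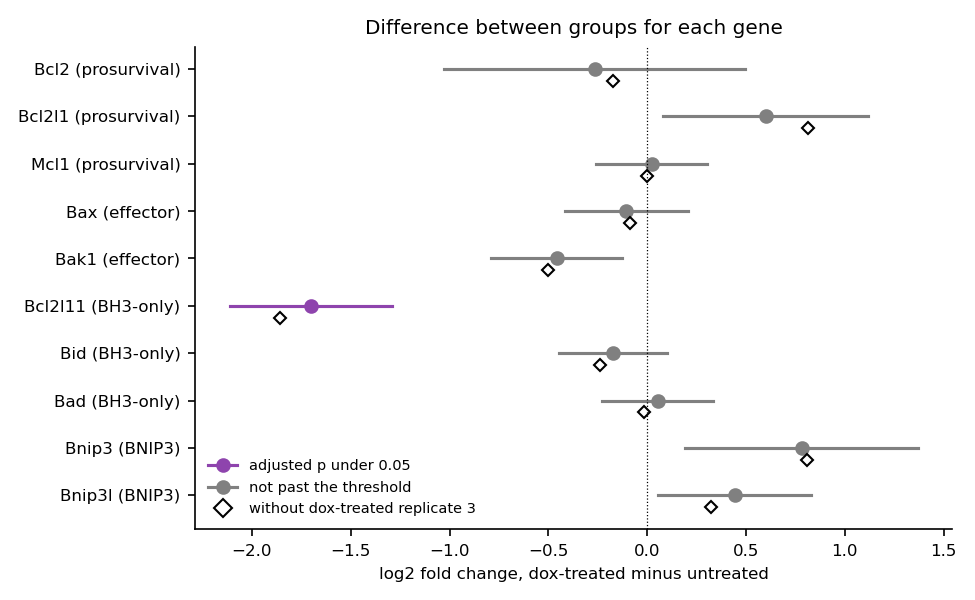
Log2 fold change (horizontal axis, dox-treated minus untreated) of each member with its 95% confidence interval from limma, grouped by role. Purple marks an adjusted p under 0.05 and open diamonds the value without dox-treated replicate 3. The interval of *Bcl2l11*, from -2.11 to -1.29, lies apart from those of the other 9 members, whose estimates run from -0.46 to 0.78.

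The mitophagy receptors *Bnip3* and *Bnip3l* were both higher in every dox-treated library, and neither passed the threshold. *Bnip3*, a gene known to be induced by hypoxia, had 133, 81 and 115 reads in untreated replicates 1, 2 and 3 (10.3, 5.99 and 10.5 CPM) and 221, 190 and 224 reads in dox-treated replicates 1, 2 and 3 (16.3, 14.1 and 14.4 CPM). Untreated replicate 2 was the lowest library by a wide gap. The log2 fold change was 0.78 (standard error 0.24, 95% confidence interval 0.19 to 1.37, adjusted p = 0.097, limma), and 0.52 without untreated replicate 2. *Bnip3l*, or *Nix*, was at 191.3, 148.3 and 166.0 CPM in untreated replicates 1, 2 and 3 and at 210.6, 208.4 and 269.4 CPM in dox-treated replicates 1, 2 and 3. Here dox-treated replicate 3, the treated library with the highest erythroid marker sum, was the highest, and the part of erythroid cells in this was not tested. The log2 fold change was 0.44 (standard error 0.16, 95% confidence interval 0.05 to 0.83, adjusted p = 0.13, limma) and 0.32 without dox-treated replicate 3. *Bnip3* and *Bnip3l* each have an annotated pseudogene copy elsewhere, *Gm16439* with 98.9% identity over 564 bp and *Gm10480* with 99.4% identity over 657 bp. Neither copy was analysed here, and reads from them could have been split with the parent genes.

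Per kilobase of exons the members spanned a wide range, from 1.63 CPM per kilobase for *Bcl2l11* in dox-treated replicate 1 to 69.8 for *Bnip3l* in dox-treated replicate 3. In untreated MEPs the order of the means was *Mcl1* (61.4), *Bax* (57.9), *Bak1* (45.8), *Bnip3l* (43.7), *Bid* (21.5), *Bad* (10.4), *Bcl2l11* (6.14), *Bnip3* (3.94), *Bcl2* (3.03) and *Bcl2l1* (2.76), all in CPM per kilobase. The library ranges of *Mcl1* and *Bax*, of *Bak1* and *Bnip3l*, of *Bnip3* and *Bcl2*, and of *Bcl2* and *Bcl2l1* overlapped, and all other neighbours were apart. In dox-treated MEPs *Bcl2l11* stood last at 1.90 ± 0.38 CPM per kilobase (SD, n = 3), with a range that overlapped that of *Bcl2*, and *Bnip3l* (59.5) stood between *Mcl1* (62.3) and *Bax* (53.5), with *Bnip3l* overlapping each of these and *Bax* apart from *Bak1* (33.2). *Bcl2l11* exceeded *Bcl2l1* per kilobase in every untreated library (ratios of 1.98, 2.26 and 2.47) and was below it in every dox-treated library (0.366, 0.332 and 0.752). With the longest transcript as the length, *Bax* came first in untreated and *Bnip3l* first in dox-treated MEPs, *Bcl2* came last in both, and *Bcl2l11* and *Bcl2l1* kept their order in each group.

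**Figure D4:**
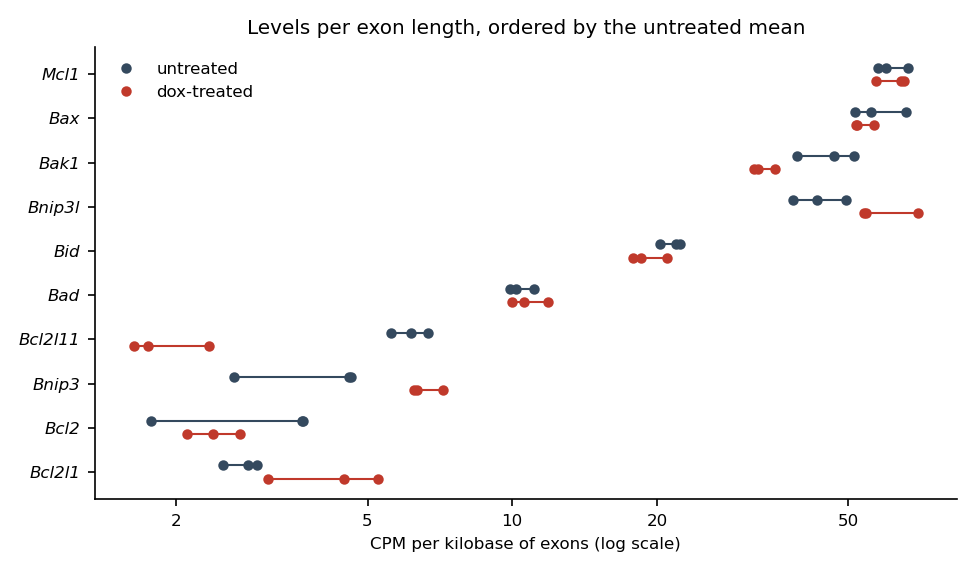
Level of each member in CPM per kilobase of annotated exons (logarithmic horizontal axis), ordered by the untreated mean. Points are libraries and lines their range. *Bcl2l11* moves from between 5.60 and 6.66 without dox to between 1.63 and 2.33 with dox, below the untreated range of *Bcl2l1* (2.50 to 2.95).

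Genes around the family were described through hand-written lists of 89 genes of apoptosis, mitophagy and hypoxia, of which 79 were tested. At an adjusted p under 0.05 (limma) 3 were higher with dox, *Xiap*, *Pim2* and *Map1lc3a*, and 1 was lower, *Htra2*. Over all genes tested 4.59% were higher and 3.18% lower at that threshold. The median log2 fold change of the 79 was 0.04. Among 8 further family genes tested, of 16 listed, 0 passed adjustment and 4 had an unadjusted p under 0.05 (limma), 2 higher and 2 lower, where 7.77% and 29.2% of all genes tested did. The smallest p-values were those of *Bcl2l15* and *Bbc3*. *Bcl2l15* had 24, 40 and 28 reads in the untreated and 9, 3 and 14 reads in the dox-treated libraries (adjusted p = 0.054, limma). It reached 1 CPM only in the untreated libraries, so it passed the filter only through the group where it was higher, which limits its p. *Bbc3*, which encodes the BH3-only protein PUMA, had a log2 fold change of 0.74 (10.6 ± 1.69 CPM with dox and 6.34 ± 1.08 CPM without, SD, n = 3, adjusted p = 0.060, limma). The mean of *Bbc3* was thus higher and that of *Bcl2l11* lower with dox, and of the pair only *Bcl2l11* was past the threshold.

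Downstream of the mitochondrion, 17 genes of the apoptosome, caspases and pore channels had a median log2 fold change of 0.01. Of these 1 was past the threshold, against 7.77% of all genes tested. *Htra2*, which encodes a mitochondrial protease that is released with cytochrome c and binds XIAP, was at 228.1, 263.1 and 249.9 CPM in untreated replicates 1, 2 and 3 and at 140.0, 125.5 and 169.9 CPM in dox-treated replicates 1, 2 and 3. It fell by 0.78 on the log2 scale (adjusted p = 0.036, limma), with no overlap between groups. *Xiap*, an inhibitor of caspases, was at 67.4, 61.9 and 68.3 CPM without dox and at 119.6, 120.4 and 89.97 CPM with dox, a difference of 0.73 on the log2 scale (limma, adjusted p = 0.043). Of the 4 inhibitor genes listed, *Xiap* was past the threshold, where 7.77% of all genes tested were, and the other 3 had log2 fold changes between 0.02 and 0.63. In the death receptor list 0 of 7 genes passed adjustment and 2, *Fas* and *Ripk1*, had an unadjusted p under 0.05 (limma), both higher, against the same 29.2%. *Fas* was low, with 8, 3 and 8 reads in untreated and 39, 34 and 18 reads in dox-treated libraries (adjusted p = 0.073, limma). It reached 1 CPM only in the dox-treated libraries, so it passed the filter only through the group where it was higher, which limits its p. *Ripk1*, a death receptor kinase, differed by 0.57 on the log2 scale (limma, adjusted p = 0.073).

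**Figure D5:**
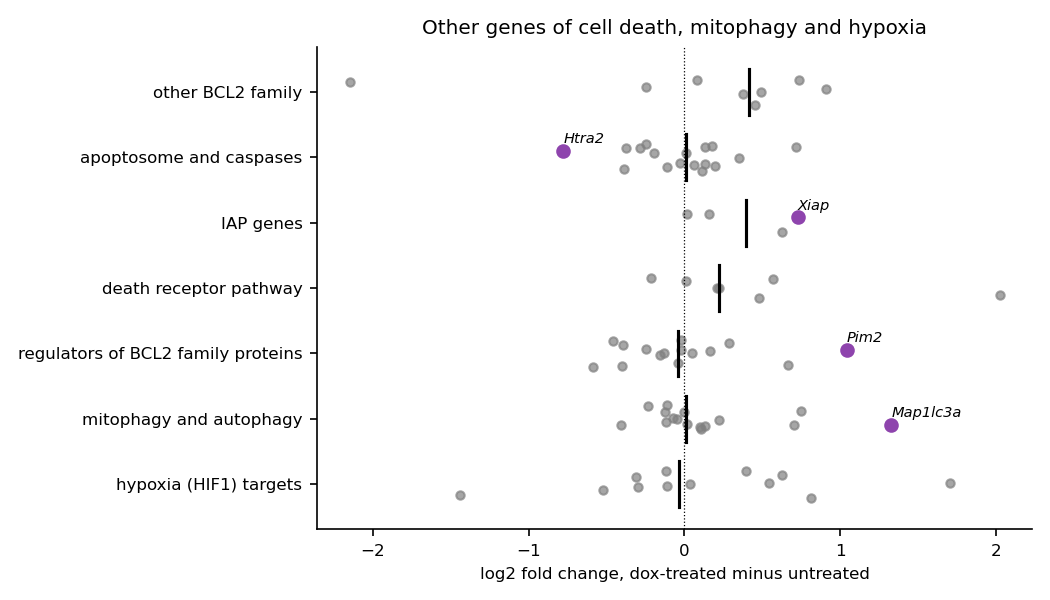
Log2 fold change (horizontal axis, dox-treated minus untreated) of the 79 tested genes of 7 hand-written lists. Purple points have an adjusted p under 0.05 and black bars are list medians, which run from -0.04 to 0.42.

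Among 15 regulators of the family's proteins, 1 was past the threshold, against 7.77% of all genes tested. This was *Pim2*, a kinase that phosphorylates BAD. It was at 7.23, 8.35 and 9.01 CPM in untreated replicates 1, 2 and 3 and at 22.2, 15.3 and 14.2 CPM in dox-treated replicates 1, 2 and 3, a difference of 1.04 on the log2 scale (limma, adjusted p = 0.039). *Foxo3*, a forkhead activator of *Bcl2l11*, differed by -0.25 on the log2 scale (limma, adjusted p = 0.22). Beside the mitophagy receptors, 1 of 16 genes of mitophagy and autophagy was past the threshold, against 7.77% of all genes. This was *Map1lc3a*, of the LC3 family to which BNIP3 and NIX bind, with 39, 34 and 26 reads in the untreated and 109, 113 and 68 reads in the dox-treated libraries (log2 fold change 1.33, adjusted p = 0.045, limma). *Pink1*, a mitophagy kinase, differed by 0.75 on the log2 scale (limma, adjusted p = 0.080). Of 12 hypoxia-related genes 0 passed adjustment, and 3 were higher and 2 lower at an unadjusted p under 0.05 (limma), with a median log2 fold change of -0.04, beside the 29.2% of all genes at that unadjusted p. *Ndrg1* differed by 1.71 on the log2 scale (limma, adjusted p = 0.093) and *Vegfa* by -0.52 (limma, adjusted p = 0.10), so that genes often induced with *Bnip3* differed in sign. The 4 calls among these lists were lost in each fit without any 1 of the 5 libraries other than dox-treated replicate 3. In those 5 fits, 65 to 133 genes in all were higher and 20 to 95 lower, against 555 and 384 with all 6 libraries. Without dox-treated replicate 3, 19 of the listed genes passed, in the fit in which 28.6% of all genes did.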

How the data were processed

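RNA from sorted MEPs was sequenced in 3 dox-treated and 3 untreated libraries. The authors removed adapters with Cutadapt, quantified reads with RSEM on the NCBIM37 (mm9) Ensembl transcriptome and normalized with limma. The deposited values are log2 CPM with 0.5 reads added, without gene length. Use of strand and the method of normalization are not given in the sources used here. Whole reads behind the values were recovered for 100% of genes in every library, within 6.6e-09 reads, and served for depth, means and voom weights.

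The deposited log2 values were fitted with limma (version 3.58.1, R 4.3.3, lmFit and eBayes) on genes that reached 1 CPM in 3 or more libraries, dox-treated minus untreated, with a Benjamini–Hochberg threshold of 0.05. Fold changes are on the scale with 0.5 reads added, which understates changes of low genes. Single members had a two-sided exact permutation test. Exon lengths and positions are those of GENCODE M1 on NCBIM37, and copies were searched among its transcripts at 95% identity over at least 100 bp. The limma fit was tested on simulated reads. Intervals and the floor of 3 reads cover counting or replicate error only, since PCR reads are not independent molecules.

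Genes named are all members, in each list of cell death, mitophagy and hypoxia genes those past the threshold or otherwise the 2 with the smallest p, and 3 genes with the profile closest to the member past it. *Foxo3*, *Pink1* and the single cell type markers were named after their values were seen, since marker lists were to be given by counts and sums. The members and lists were chosen with earlier results of these data known, as were the sequences searched in promoters. The alternatives changed the pseudocount, filter, variance model, weights, scaling, block, threshold and libraries. 1 gene of the lists is not reported here by name.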

Additional observations from a re-analysis of the deposited data

How the results depend on the processing

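Of 170 pairs of a member and an alternative, the looser threshold of 0.1 included, 155 kept their direction and their side of the threshold. *Bcl2l11* stayed lower and past the threshold in 15 of 16 refits, with adjusted p from 0.00074 to 0.055 (limma). The exception was the replicate block, with 0 members, 0 other listed genes, 53 higher and 29 lower genes in all. Deviations of same-numbered libraries correlated at 0.018, -0.121 and -0.299, and those of the other pairs at between -0.204 and 0.238. Taken from means of 3 libraries, such values cannot show whether the numbers pair the samples, which is not stated. The cause of the lost calls was not tested. With the block and voom precision weights 7 other listed genes passed and *Bcl2l11* had an adjusted p of 0.0037 (limma).

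Called members numbered 2 with a mean-variance trend (*Bak1* added), 5 with array quality weights (*Bcl2l1*, *Bak1*, *Bnip3* and *Bnip3l* added) and 3 at a threshold of 0.1, and from 1 to 2 with single libraries left out. All genes higher and lower, 555 and 384 of 12088 as reported, were 909 and 747 with the trend. They were 2515 and 2601 with array quality weights and 1273 and 939 at a threshold of 0.1. Calls thus rose over all genes as well. Other listed genes called, 4 as reported, numbered 7 with 1 CPM added, 12 with the trend, 32 with array quality weights, 8 with voom precision weights, 7 with quantile normalization and 13 at a threshold of 0.1, and from 0 to 19 with single libraries left out. Of the 4, *Htra2* passed in every fit except the block alone and those without 1 of the 5 libraries other than dox-treated replicate 3. Beyond those fits *Xiap* was lost with total-read scaling, *Pim2* with quantile normalization and the block with voom, and *Map1lc3a* with the 5 CPM filter, voom, total-read scaling and the block with voom. With single libraries left out, calls over all genes ran from 65 to 1712 higher and from 20 to 1695 lower, the largest without dox-treated replicate 3. The causes were not tested. Signs turned for *Mcl1* (-0.014, -0.003 and -0.020 without dox-treated replicate 1, dox-treated replicate 3 and untreated replicate 2, in a range from -0.020 to 0.084), *Bax* (0.004 with total-read scaling) and *Bad* (-0.040 with quantile normalization, and from -0.017, without dox-treated replicate 3, to 0.109 over libraries left out). Total-read scaling moved the median of all genes from -0.03 to 0.08.

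Depth limits the lowest listed genes, such as *Fas* and *Bcl2l15*, more than any member. With 3 libraries a group, small differences of *Bcl2*, *Bid*, *Bad*, *Bax* and *Mcl1* could not be told from 0.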
